A study of Homo sapiens with 10 samples.

Results

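The 266 regions described here were called open in DLD-1 cells with GATA6 and had no open-chromatin call in GATA6 knockout cells. They stayed on the peak lists of GATA6 degron cells treated with auxin for 12 h. No GATA6 protein level was measured in these files. They were selected on those calls: the intervals of the 6 peak lists from the GATA6 degron line, on chromosomes 1 to 22 and X, were joined into 120452 regions. A library was said to call a region when 1 of its peaks overlapped it by 1 bp. The 266 were called by both degron control libraries, both auxin libraries and both wild-type libraries, and by neither knockout library. Of the 120452 regions, 46988 met the first 3 conditions and are called eligible here. The 266 were 0.566% of these, a share that the rule itself set and that carries no test.

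ATAC-seq, whose transposase tags accessible DNA, was run on DLD-1, an established human colorectal adenocarcinoma line. The 10 libraries fell into 5 groups of 2. Cells of genotype GATA6-AID-IAA7, in which GATA6 carries an auxin-inducible degron tag, gave AID_ctrl, AID_aux and AID_wash. AID_ctrl was labelled +Auxin with a time of 0 h and "ctrl" in its title, and was read as untreated. AID_aux was labelled +Auxin for 12 h, and AID_wash was labelled Wash with a time of 1 and no unit. The protocol gives 500 µM IAA, an auxin, and speaks of positive clones without saying how many. WT cells and GATA6-KO cells, made with CRISPR/Cas9, gave the other 4 libraries and carry no degron. The labels do not say that replicates were separate cultures, nor how many knockout clones were used. Differences between replicates therefore measure the spread between these libraries, which may be technical.

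GATA6 is a zinc-finger transcription factor of the GATA family, which binds a short DNA word with GATA at its core and can open chromatin at enhancers and promoters. In the intestine it is known for roles in epithelial renewal and lineage genes. The degron removes the protein within a treatment, whereas a knockout line has grown without it for many divisions.

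The lists differed in length, and no read counts were used, so sequencing depth is unknown. The degron lists held between 154150 and 198493 peaks, WT replicates 1 and 2 held 92814 and 65939 windows, and KO replicates 1 and 2 held 130311 and 116231. The KO lists were thus longer than the WT lists, and 4943 regions called by all AID_ctrl, AID_aux and KO libraries had no WT call. A further 215 regions called by both AID_ctrl and both WT libraries had no call in any AID_aux or KO library and are not among the 266. At GATA6 itself, 35 regions were assigned to the gene, of which AID_aux called 26 and 20, KO 23 and 22, and WT 17 and 13. None of them was among the 266, and open chromatin at the gene does not show whether its protein was lost. As a check of cell type, 73 eligible regions belonged to 11 of 12 colorectal epithelial marker genes. Eligible regions also lay at 9 of 10 blood and 9 of 12 fibroblast or endothelial marker genes, so presence on a list does not separate cell types here. The 266 included none at these 3 marker lists, which held 28 blood, 42 fibroblast or endothelial and 73 epithelial eligible regions. With 0.566% of all eligible regions among the 266, lists of this size are too small to show avoidance.

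Sequence was available for the 250 bases before each transcript start in RefSeq (GRCh38.p14, the assembly of the files' hg38 coordinates). Of these promoters, 13 overlapped 11 of the 266 regions (4.14%, 95% Wilson interval 2.32 to 7.25%), against 21.8% of the 46425 eligible regions called by both KO libraries. They were searched on both strands for the words AGATAA or AGATAG or TGATAA or TGATAG, which are commonly bound by GATA factors. Of the 13 promoters, 5 held such a word (38.5%, interval 17.7 to 64.5%). The share was 22.3% over all 34789 promoters, and 12.7% over the 15224 promoters that overlapped an eligible region called by both KO libraries. The word count is a description of these letters and not of GATA6 binding. The promoters below show 4 with the word and, for contrast, an RNF43 promoter, whose 250 bases had none. Each runs 5′ to 3′ on the gene's strand, and capitals mark the words or their reverse complements.
SPINK4, chr9:33239917-33240166, plus strand: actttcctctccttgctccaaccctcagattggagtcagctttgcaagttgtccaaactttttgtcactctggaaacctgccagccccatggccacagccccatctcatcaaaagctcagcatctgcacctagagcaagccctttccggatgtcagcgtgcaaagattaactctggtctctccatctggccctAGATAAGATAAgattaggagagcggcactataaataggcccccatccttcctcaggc
LNC-RHL1, chr11:116814183-116814432, minus strand: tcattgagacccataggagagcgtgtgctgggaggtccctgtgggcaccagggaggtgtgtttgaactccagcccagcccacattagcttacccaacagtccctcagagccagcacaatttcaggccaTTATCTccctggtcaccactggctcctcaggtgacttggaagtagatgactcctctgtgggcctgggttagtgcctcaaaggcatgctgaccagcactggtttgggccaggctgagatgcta
RMDN2-AS1, chr2:38036342-38036591, minus strand: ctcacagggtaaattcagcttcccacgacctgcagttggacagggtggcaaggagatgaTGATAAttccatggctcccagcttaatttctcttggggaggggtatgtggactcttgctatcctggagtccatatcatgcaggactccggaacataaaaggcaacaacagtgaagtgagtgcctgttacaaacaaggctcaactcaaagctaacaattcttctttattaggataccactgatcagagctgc
LINC02103, chr5:28287666-28287915, minus strand: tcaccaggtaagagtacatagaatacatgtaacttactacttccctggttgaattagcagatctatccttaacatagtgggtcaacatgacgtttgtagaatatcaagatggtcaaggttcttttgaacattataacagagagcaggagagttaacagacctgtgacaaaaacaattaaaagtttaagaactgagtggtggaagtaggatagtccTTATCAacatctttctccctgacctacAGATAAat
RNF43, chr17:58402722-58402971, minus strand: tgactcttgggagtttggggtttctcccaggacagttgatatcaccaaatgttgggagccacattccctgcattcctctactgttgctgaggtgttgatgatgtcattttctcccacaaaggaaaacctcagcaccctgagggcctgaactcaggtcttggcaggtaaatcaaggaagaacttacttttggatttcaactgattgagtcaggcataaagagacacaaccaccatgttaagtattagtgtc
SPINK4 encodes a peptide of goblet cells, and its promoter carried 2 overlapping words close to the start. LNC-RHL1 is a long noncoding RNA whose promoter lay in the region nearest APOA4. RNF43 encodes a ubiquitin ligase that removes WNT receptors from the cell surface. Its printed promoter belongs to a transcript start inside the gene, in a region 14530 bp from the nearest gene end.

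To follow the 266 regions within the degron line, each eligible region was ranked in each library from 0 to 100 by the authors' −log10 p of its strongest summit. A rank of 50 is thus a typical eligible region of that library. The 266 regions ranked low among eligible regions before auxin, with a median rank of 27.3 and 25 in AID_ctrl replicates 1 and 2. Among all peaks of a list, their strongest summits had a median percentile of 68.7 and 65.7 in AID_ctrl. In AID_aux that percentile was 48.1 and 37.8. In AID_aux the median rank of the 266 was 7.07 and 6.92, and in AID_wash it was 26.9 and 25.4. The 46425 eligible regions called by both KO libraries, called KO-called here, make up nearly all ranked regions, so the ranking itself holds their median near 50 in every library. On the authors' own scale, the median −log10 p of the 266 was 26.3 and 22.7 in AID_ctrl, 15.4 and 10.6 in AID_aux, and 19.8 and 26.9 in AID_wash. In KO-called regions it was 41.9 and 38.6 in AID_ctrl, 50.3 and 35.4 in AID_aux, and 33.3 and 44.8 in AID_wash. The scale thus differed between lists, and the −log10 p values set side by side below were not adjusted for this. The name given to the group, regions that acute degradation leaves open, therefore held for the calls. The median rank and median −log10 p were lower in AID_aux than in AID_ctrl, which was not so for every region, as given below. In bulk libraries, fewer open cells and less opening per cell cannot be told apart.

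**Figure D1:**
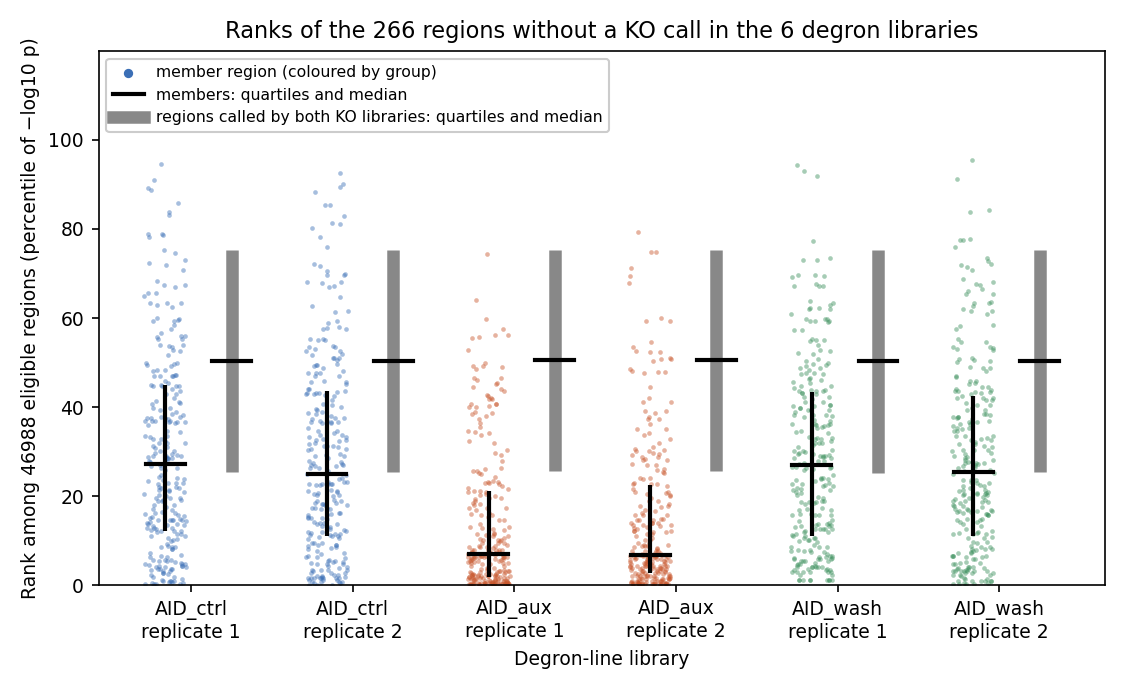
Rank of each of the 266 regions (percentile of −log10 p among 46988 eligible regions, y axis) in the 6 degron-line libraries (x axis), with points for regions, black lines for their median and quartiles, and grey bars for the quartiles of regions called by both KO libraries. The medians of the 266 were 27.3 and 25 in AID_ctrl, 7.07 and 6.92 in AID_aux and 26.9 and 25.4 in AID_wash. The grey class is nearly all of the ranked regions, so its median is held near 50 by the ranking.

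In 152 of the 266 regions (57.1%, Wilson interval 51.1 to 62.9%) both AID_aux ranks lay below both AID_ctrl ranks. Over all eligible regions that share was 19.5%, and over KO-called regions at the same AID_ctrl ranks it was 15.3%. When a call had to cover at least 50% of a region, 754 regions met the rule, and the share in them was 22.8%, close to the 19.4% of KO-called regions. The reverse order, both AID_aux ranks above, held in 30 (11.3%), against 21.5% over all eligible regions. The rule used the calls of these 4 libraries, so the shares are given without a test. Regions just outside the rule, called by 1 KO library, showed the lower order in 131 of 297 (44.1%).

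The mean AID_aux rank minus the mean AID_ctrl rank had a median of −11.0 in the 266 regions, with quartiles at −27.9 and −0.571, against 0.526 in the KO-called regions. It was below 0 in 204 regions and above 0 in 62. A rank cannot fall below 0, so regions of low AID_ctrl rank had little room to drop. In the lowest decile of AID_ctrl rank, 63 regions had a median difference of −0.44, and in the fifth decile, 30 regions had −34.1. The 2 regions in the top decile had −81.8. KO-called regions in the same deciles had medians between −0.978 and 3.21.

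After auxin was washed out, both AID_wash ranks exceeded both AID_aux ranks in 156 of the 266 regions (58.6%), against 18.9% over all eligible regions, and lay below them in 22 (8.27%), against 20.4%. This comparison shares the AID_aux libraries with the one before it, so the 2 are given side by side and neither supports the other. AID_wash against AID_ctrl does not use AID_aux. There, both wash ranks were lower in 61 regions (22.9%), against 17% over all eligible regions and 13.8% of KO-called regions at the same AID_ctrl ranks. Both were higher in 46 (17.3%), against 17.1% over all eligible regions and 19.1% at the same ranks. The median difference of mean ranks was −0.557 in the 266, with 140 regions below 0 and 126 above.

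The rule set no condition on the calls of the wash libraries, so these were compared. Their peaks were among those joined into regions, so a region widened by a wash peak was called there by construction. Both AID_wash libraries called 253 of the 266 regions (95.1%, Wilson interval 91.8 to 97.1%), AID_wash replicate 1 called 257 and replicate 2 called 262. Over all eligible regions 97.5% were called by both. Within deciles of AID_ctrl rank, the odds of a wash call in the 266 were 1.15 times those in KO-called regions (Mantel-Haenszel, 95% interval 0.635 to 2.08). The interval includes 1 but also odds well above and below it, so it does not show that the classes were alike. Without the deciles the ratio was 0.482 (0.275 to 0.845), the 266 being weaker regions to begin with. The 13 regions that a wash library missed had median ranks of 4.01 in AID_ctrl and 1.47 in AID_aux, near the bottom in both. They included regions at NALF1, REST, which encodes a repressor of neuronal genes, and BMP5, a bone morphogenetic protein. REST and BMP5 were not named by the fixed rules given below. All intervals here treat regions as separate draws and leave out the spread between libraries.

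The 10 regions with the highest lower AID_ctrl rank show the pattern one by one, and having been picked by that rank they could fall more than others. The highest was inside PKNOX2, a homeobox gene, at chr11:125410529-125411989. Its −log10 p was 88.8 and 90.5 in AID_ctrl, 9.61 and 8.18 in AID_aux, and 90.9 and 85.0 in AID_wash, so the AID_aux values stood apart from the other 4 libraries. Its mean rank fell by 88.0, the greatest drop among the 266, and the nearest KO window lay 5372 bp away. A region at chr2:111684803-111686132, 80764 bp from ANAPC1, a subunit of the anaphase-promoting complex, read 70.1 and 68.1, then 8.48 and 7.87, then 56.4 and 68.0. AID_aux was far below both other groups there.

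Inside STK10, a serine/threonine kinase gene, chr5:172142756-172143662 had −log10 p of 65.5 and 70.7 in AID_ctrl, 10.8 and 9.03 in AID_aux, and 28.0 and 54.7 in AID_wash. Here AID_wash lay between the other groups without overlapping either. Inside NAALAD2, a peptidase gene, chr11:90171174-90172449 had 77.9 and 74.5, then 22.3 and 17.7, then 47.9 and 71.2. A region more than 100000 bp from any protein-coding gene, chr12:42921736-42922979, had 93.2 and 80.0, then 25.5 and 11.6, then 82.7 and 101.4. AID_aux was lowest in both, with no overlap with AID_ctrl or AID_wash.

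PABPC4L, a gene related to poly(A)-binding proteins, held chr4:133995886-133997810 with −log10 p of 81.4 and 83.9, then 30.02 and 36.7, then 85.8 and 118. The region inside SAMD15 at chr14:77382912-77384380 had 61.9 and 74.7, then 23.2 and 22.9, then 40.1 and 59.4. SLC35F4, a solute carrier family gene, held chr14:57746631-57747725 with 69.8 and 82.3, then 46.7 and 29.4, then 45.5 and 67.4. In SLC35F4 the AID_aux and AID_wash values overlapped. The last of the 10, chr7:125934411-125935705, lay 765271 bp from the nearest KO window, the longest distance among the 266. It had 64.6 and 68.5, then 55.8 and 33.7, then 38.8 and 74.0, with a rank difference of −25.9, the smallest drop of the 10. All 10 had both AID_aux ranks below both AID_ctrl ranks, against 57.1% of the 266 and 19.5% of all eligible regions. Neither wash library missed any of the 10. In 6 of them (NAALAD2, ANAPC1, SLC35F4, STK10, APOA4 and SAMD15) both wash ranks lay below both AID_ctrl ranks. That order held in 22.9% of the 266 and 17% of all eligible regions. Picked for a high AID_ctrl rank, the 10 could fall more than others in both comparisons.

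**Figure D2:**
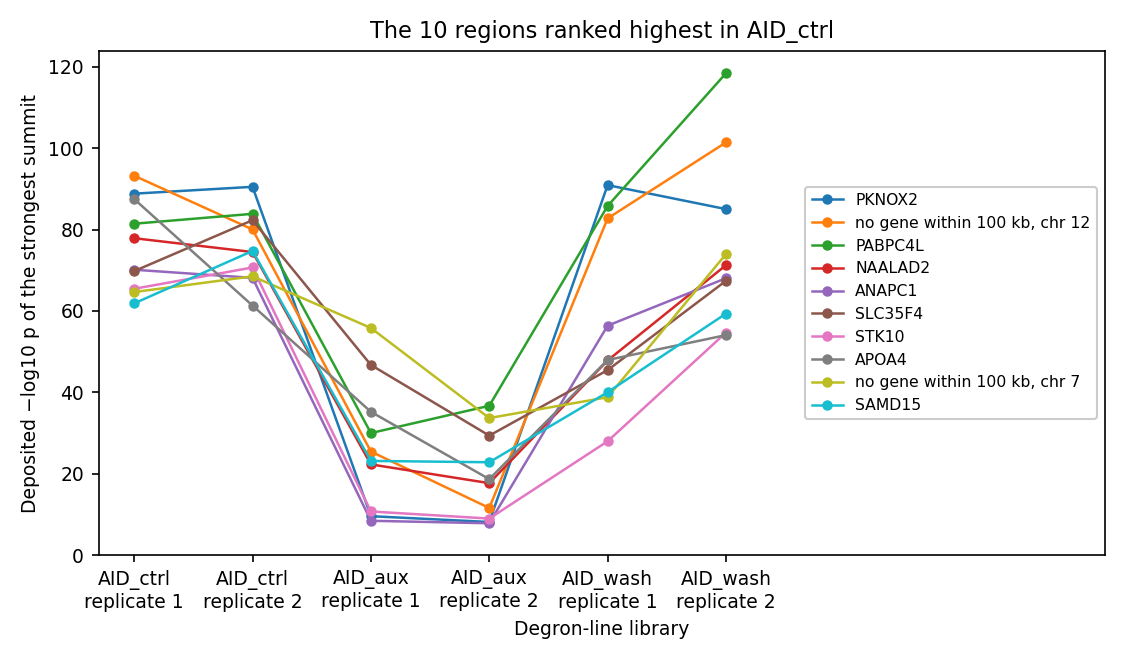
−log10 p (y axis) of the strongest summit in each degron-line library for the 10 regions with the highest lower AID_ctrl rank, with 1 colour per region (named by its gene or the nearest one within 100000 bp) and lines that only join the points of a region. The region in PKNOX2 read 88.8 and 90.5 in AID_ctrl, 9.61 and 8.18 in AID_aux and 90.9 and 85.0 in AID_wash.

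The remaining region of these 10, chr11:116813094-116814600, lay 6853 bp from APOA4, which encodes an apolipoprotein made by enterocytes, and contained the LNC-RHL1 promoter printed above. Its −log10 p was 87.5 and 61.3 in AID_ctrl, 35.2 and 18.7 in AID_aux, and 48.0 and 54.1 in AID_wash, with no overlap between the 3 groups. The SPINK4 region, chr9:33239681-33240904, covered the promoter and the start of the gene. It read 44.5 and 45.4, then 7.9 and 9.11, then 31.8 and 48.8, and its mean rank fell by 53.6. The RMDN2-AS1 promoter lay in chr2:38035727-38036886, which read 35 and 32.2, then 20.8 and 5.1, then 14 and 37.9. The region of RNF43, chr17:58402682-58403004, read 34.4 and 49.9, then 46.7 and 35.7, then 35 and 61.0. Its AID_aux values lay within the range of its AID_ctrl values, and a KO window stood 37 bp away.

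Once these values were seen, the 11 regions that overlap a promoter were split by the GATA word. All 5 regions with a word in such a promoter (near APOA4, and at SPINK4, RMDN2, RLN2 and LINC02103) had both AID_aux ranks below both AID_ctrl ranks, and the median rank difference was −34.0. None of the 6 regions without one did (RNF43, ADGRF3, LTF, POU3F3, WNT2B and SSPN), and their median was 0.584. Among KO-called regions the same split gave 19.0% of 1688 regions with a word and 15.6% of 8443 without. These are counts of 5 and 6 regions, chosen after their values were seen, and they carry no test. Mean AID_ctrl rank was 21.2 to 82.3 in the 5, but 12.0, 10.1, 5.67 and 3.2 at LTF, POU3F3, WNT2B and SSPN. Such low ranks had little room to fall. RNF43 and ADGRF3 (52.3 and 43.2) were 323 and 262 bp wide, with KO windows 37 and 245 bp away. The 5 were 1160 to 2104 bp wide and at least 3758 bp from KO windows. SSPN (1362 and 41562 bp) matched them in both, and WNT2B (5658 bp) in distance. The parts of word, rank, width and distance were not tested.

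Position was not used by the rule and could be tested. Of the 266 regions, 16 lay within 1000 bp of the start or end of a protein-coding gene (6.02%, Wilson interval 3.74 to 9.55%), against 24.4% of KO-called regions and 16.7% of those at the same AID_ctrl ranks. Within deciles of rank the odds ratio was 0.323 (Mantel-Haenszel, 95% interval 0.196 to 0.533). Inside a protein-coding gene lay 117 (44.0%, interval 38.1 to 49.99%), against 55.1% of KO-called regions, with an odds ratio of 0.716 (0.561 to 0.913). Its interval included 1 without KO replicate 2 (0.821, 0.661 to 1.02) and with only degron peaks of −log10 p of at least 10 (0.801, 0.563 to 1.14). No protein-coding gene within 100000 bp was found for 64 (24.1%, interval 19.3 to 29.5%), against 9.07%, with an odds ratio of 2.64 (1.99 to 3.50). The last share was added after the data were seen. When a call had to cover at least 50% of a region, the share near gene ends turned to 28.1% of 754 regions, above the 11.4% of KO-called regions. With that coverage the odds ratio was 1.15 (0.990 to 1.34) inside genes and 1.18 (0.919 to 1.53) for regions without a gene within 100000 bp. By construction, a single 500-bp window cannot cover 50% of a region over 1000 bp, and the median width of the 266 was 1056 bp.

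**Figure D3:**
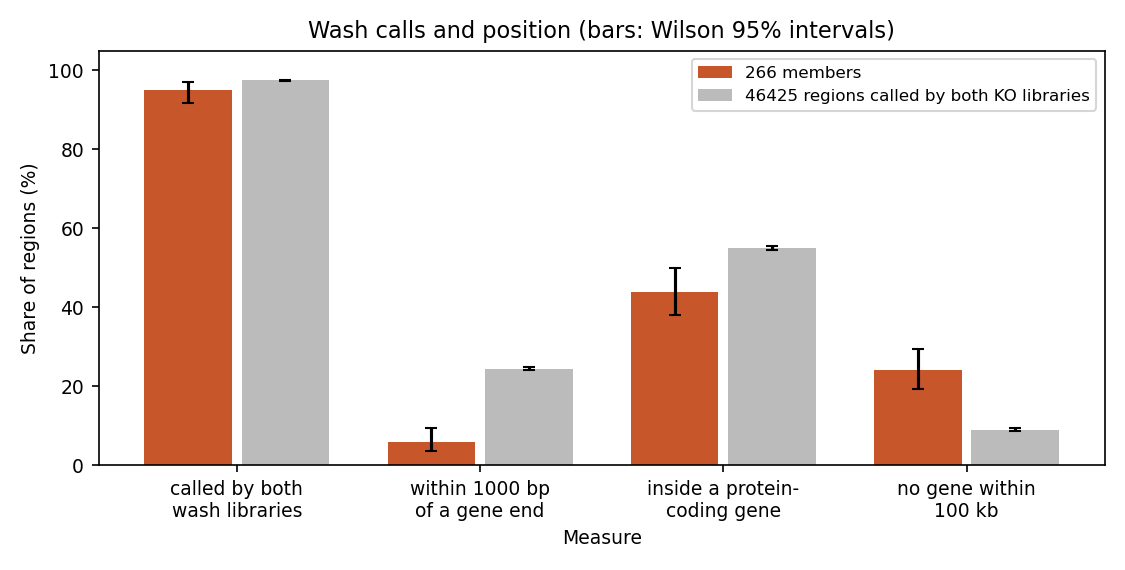
Bars give the share of regions (percent, y axis) called by both wash libraries, near a gene end, inside a protein-coding gene, or with no protein-coding gene within 100000 bp, for the 266 regions (orange, members) and for the 46425 eligible regions called by both KO libraries (grey), with 95% Wilson intervals. The share near a gene end was 6.02% against 24.4%, and that without a gene within 100000 bp was 24.1% against 9.07%.

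Of the 16 regions near gene ends, 2 had both AID_aux ranks below both AID_ctrl ranks (12.5%, Wilson interval 3.5 to 36%), against 150 of the other 250 (60%) and 19.5% of all eligible regions. The 16 were also narrow, with a median width of 620 bp, and close to KO windows, with a median distance of 966 bp. The parts of width and distance were not tested. These 2 were SPINK4 and COXFA4L3, where chr15:45431579-45431848 read 27.2 and 24.8, then 9.6 and 5.88, then 18.6 and 36.5. At SCARB2, which encodes a lysosomal membrane protein, chr4:76233980-76234213 read 33.0 and 36.2, then 48.5 and 22.6, then 32.0 and 37.4. At TTBK2, a kinase gene of cilium formation, chr15:42737768-42738158 read 22.5 and 20.4, then 41.2 and 31.4, then 30.6 and 39.99. AID_aux overlapped AID_ctrl at SCARB2 and exceeded it at TTBK2. At ADGRF3, an adhesion G protein-coupled receptor gene, the mean rank rose by 16.3, and at GRK4, a receptor kinase gene, it fell by 2.14. ITGA3, which encodes an integrin subunit, had 2 of the 16, with rank differences of −4.64 and 4.75. PRR23D1 had 1, with a difference of −0.582.

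Distance to the nearest KO window says how far each region was from failing the rule. It ran from 8 to 765271 bp, with a median of 5444 bp and quartiles at 1850 and 17231 bp. Of the 32 regions with a KO window within 500 bp, 6 had both AID_aux ranks below both AID_ctrl ranks (18.8%), a share close to the 19.5% over all eligible regions, and their median rank difference was 2.72. The share was 59 of 95 (62.1%) at over 500 to 5000 bp and 75 of 113 (66.4%) at over 5000 to 50000 bp. Beyond 50000 bp it was 12 of 26 (46.2%). The regions with a near KO window were also narrow, with a median width of 401 bp. By width, the lower order held in 34 of the 89 narrowest regions (38.2%) and in 62 of the 89 widest (69.7%). The parts of distance and width in the difference were not tested separately. Just outside the rule, 297 eligible regions were called by 1 KO library, 229 by replicate 1 and 68 by replicate 2, and in 9 of them KO windows covered at most 100 bp.

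**Figure D4:**
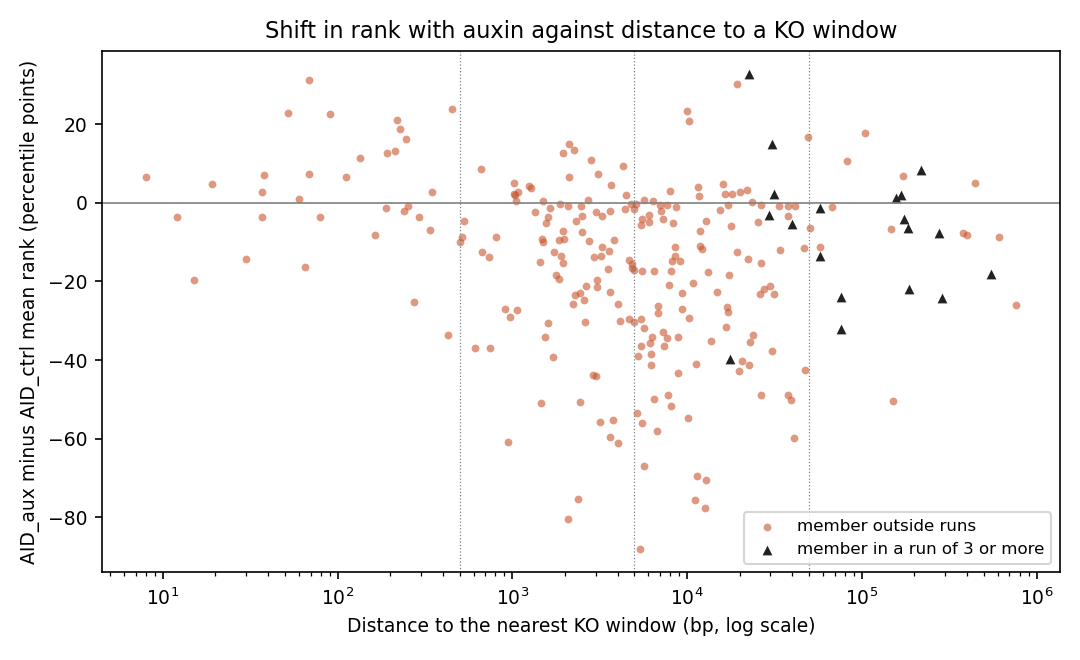
Mean AID_aux rank minus mean AID_ctrl rank (percentile points, y axis) of each of the 266 regions against the distance to the nearest KO window (bp, log axis, x axis), with triangles for regions in runs of 3 or more, circles for the others and dotted lines at 500, 5000 and 50000 bp. The 32 regions within 500 bp of a KO window had a median of 2.72, and the 113 regions over 5000 to 50000 bp away had a median of −17.5.

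Some regions near KO windows ranked higher with auxin. Inside DAPK3, a kinase gene of the cell death family, chr19:3968686-3969002 had −log10 p of 31.8 and 42.1 in AID_ctrl, 77.3 and 60.4 in AID_aux, and 45.6 and 65.5 in AID_wash. A KO window stood 69 bp away. A region 15881 bp from WNT5B, which encodes a WNT ligand, read 16.2 and 15.0, then 39.2 and 24.6, then 28.4 and 26.3, with a KO window 450 bp away. In both, the AID_aux and AID_ctrl values did not overlap and AID_wash overlapped AID_aux. These 2 were named after their values were seen.

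The 202 regions with a protein-coding gene within 100000 bp were spread over 188 genes, of which 177 had 1 region, 9 had 2 and 2 had more. CALN1, which encodes a calcium-binding protein of neurons, had the most with 4, beside 3 eligible regions called by both KO libraries. From the highest AID_ctrl rank down, the 4 read as follows. The region chr7:72211031-72212674 had 41.5 and 44.1 in AID_ctrl, 26.7 and 10.5 in AID_aux, and 25.7 and 38.3 in AID_wash. The next, chr7:71783308-71784892, had 29.3 and 23.5, then 49.1 and 28.3, then 28.2 and 27.8. The region chr7:71775164-71776233, 3793 bp outside the gene, had 35.2 and 22, then 55.1 and 55.2, then 30.8 and 32.8, and chr7:71999315-72000046 had 16.6 and 27.3, then 18.9 and 19.2, then 33.5 and 23.4. The 4 did not move together: the first dropped by 39.8 in mean rank, and the third rose by 32.7, the greatest rise of the 266.

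NALF1, which encodes a subunit of a sodium leak channel, had 3 regions, with rank differences of −6.44, 1.14 and −3.12. Its strongest, chr13:107465891-107467205, read 60.1 and 38.8, then 55.9 and 36.6, then 29.5 and 39.4, so auxin and control overlapped. The 9 genes with 2 regions were HS3ST3A1, ITGA3, ITPR2, POU3F3, RAD51B, RLN2, SKAP1, TTC13 and ZBTB10. In 4 of these genes, 1 of the 2 regions had both AID_aux ranks below both AID_ctrl ranks. They were HS3ST3A1, a heparan sulfate sulfotransferase gene (rank differences −34.2 and 2.89), RAD51B, a DNA repair gene with 40 KO-called regions (−30.3 and 0.808), TTC13 (−27.9 and −5.08) and RLN2, the relaxin gene (−11.9 and 16.6). In the other 5 neither region did, and SKAP1, an adaptor gene of T cells, had differences of 22.9 and −0.17. POU3F3, a neural POU-domain factor, had 4.58 and 10.9, ITPR2, a calcium channel gene, had 7.40 and −3.56, and ZBTB10 had 9.44 and 0.476.

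Genes of intestinal identity and of signalling pathways were followed through fixed lists. Over 15 gene lists, 319 genes had 1323 eligible regions, of which 11 were among the 266 (0.831%), against 0.566% of all eligible regions. No list had more than 2, so the counts are too small to show whether the 266 favoured or avoided any of them. Lists of enteroendocrine genes (17 eligible regions), AP-1 genes (46), receptor tyrosine kinase and RAS genes (177), looping and chromatin factors (75), cell cycle genes (61) and GATA factors with their cofactors (31) had none.

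The WNT list had RNF43 alone (1 of 140). The enterocyte list had the region near APOA4 (1 of 49), and the goblet list had SPINK4 (1 of 38).

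The YAP and Hippo list had 1 of 113, inside STK4, a Hippo pathway kinase gene. There chr20:45015861-45016473 read 30.9 and 24.2, then 8.07 and 5.45, then 25.7 and 44.4, with AID_aux apart from the other groups. The mesenchymal list had 2 of 50. Inside TCF4, a basic helix-loop-helix factor gene distinct from the WNT factor TCF7L2, chr18:55261765-55263661 read 39.3 and 36.8, then 28.4 and 13.6, then 39.3 and 51.3. By fold enrichment in place of −log10 p, its AID_aux and AID_ctrl values overlapped (6.94 and 5.15 against 6.66 and 6.61). The other, at S100A4, a calcium-binding protein gene, read 10.8 and 6.7, then 7.74 and 11.7, then 6.6 and 13.2, with all groups overlapping.

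The junction and adhesion list had 2 of 184. One lay 84358 bp from CTNNA1, which encodes the alpha-catenin of adherens junctions, and read 18.4 and 21.3, then 18.9 and 10.9, then 19.5 and 16.7. By these values its groups overlapped, although both of its AID_aux ranks lay below both AID_ctrl ranks. The other was inside LAMA5, a laminin chain gene, at chr20:62358367-62358754, and read 26.2 and 15.9, then 41.3 and 27.3, then 25.7 and 21.9, with AID_aux highest. The BMP and TGF-beta list had 1 of 177, a region 70298 bp from ID2, a target of BMP signalling, which read 7.34 and 27.2, then 11 and 5.6, then 12.3 and 20.2. The housekeeping list had 1 of 48, in the ribosomal protein gene RPL13A, which read 11.3 and 12.4, then 23.1 and 9.97, then 23.5 and 11.9. The groups overlapped at ID2 and RPL13A.

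Along the chromosomes, the share of eligible regions among the 266 ran from 0.220% on X (2 of 909) to 1.23% on chromosome 13 (13 of 1053, Wilson interval 0.723 to 2.1%). In 6 places at least 3 eligible regions in a row were all among the 266, which took in 19 regions. They lay at CALN1 (4 regions, chr7:71775164-72212674), at NALF1 (3, chr13:107465891-107680652) and, with no protein-coding gene within 100000 bp, at chr2:21499978-21758944, chr2:51716874-52193630, chr9:101906936-103731961 and chr21:27423094-27532621, with 3 each. A run passes over regions that were not eligible, so KO windows could lie within its span. KO replicates 1 and 2 had 2 and 9 windows in the CALN1 span, 0 and 1 at NALF1, and 3 and 3 at chr9:101906936-103731961. In these runs 8 of 19 regions had both AID_aux ranks below both AID_ctrl ranks (42.1%), against 144 of the other 247 (58.3%). The runs differed among themselves, with 3 of 3 at chr2:51716874-52193630 and 0 of 3 at chr21:27423094-27532621.

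The 26 regions more than 50000 bp from a KO window lay in 19 stretches free of KO windows, of 122 to 1719 kb with a median of 600.2 kb, and 21 of the 26 had no protein-coding gene within 100000 bp. The stretch chr2:51121315-52269400 spans 1148 kb and holds 3 of the 26. It had 9 and 8 windows in WT replicates 1 and 2. By its definition it held no window of either KO library and ended at a KO window on each side. None of the other stretches had as many WT windows, and the longest, chr2:76954146-78672982, had 4 and 1. In the stretch chr2:51121315-52269400 the degron lists had 10 and 8 intervals in AID_ctrl, 8 and 7 in AID_aux, and 5 and 7 in AID_wash. Its 3 regions read 36.5 and 32.0, then 23.9 and 19.1, then 16.4 and 27.8 for chr2:52082404-52084177. They read 32.4 and 29.7, then 13.6 and 18, then 24.3 and 34.2 for chr2:52192037-52193630, and 29.2 and 40.1, then 26.6 and 21.7, then 22.2 and 22.3 for chr2:51716874-51717687.

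**Figure D5:**
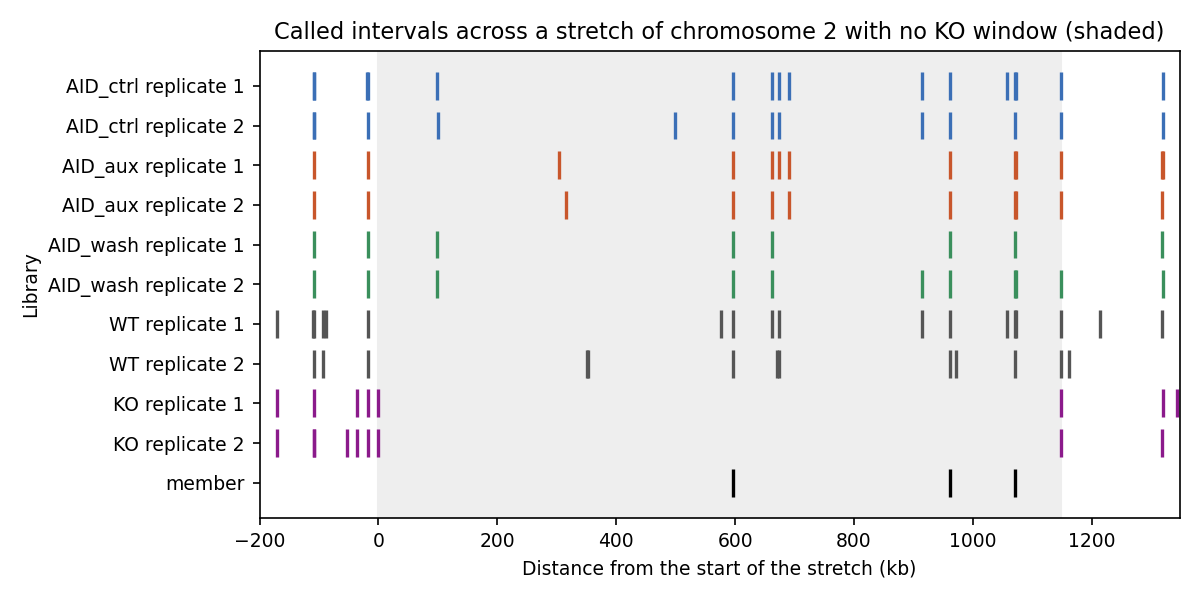
Peak intervals of the 10 libraries (rows) along 1148 kb of chromosome 2 without a KO window and 200 kb on either side, plotted by distance from the start of the stretch (kb, x axis), with the stretch shaded and 3 of the 266 regions in the bottom row (member). WT replicates 1 and 2 have 9 and 8 windows inside the stretch, KO replicates have none, and KO windows appear in both flanks.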

How the data were processed

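ATAC-seq libraries of DLD-1 cells (10 libraries, 5 groups of 2) were analysed from the deposited peak lists, 1 per library. Per the submitters' processing notes, the tools were MACS2 2.1.1, Bowtie2 2.4.2, Trim Galore 0.6.10 and Picard, and the build was hg38. Settings, the transposase offset and blacklist filters were not given in the sources used here, which bears on where peak edges fall. The protocol in the labels gives Omni-ATAC on 50000 viable cells and 150-nt paired reads. Per the file headers and values, the 6 deposited degron lists give each summit with a score, a fold enrichment ratio and the −log10 of its p-value and q-value, starting at a −log10 p of 5. The 4 deposited WT and KO lists hold only coordinates of 500-bp windows that do not overlap, so heights could not be compared there. All scores are the authors'. Ranks were taken within a list, whereas the −log10 p values printed for several libraries were not adjusted for differences between lists. Longer lists call more regions, and depth is unknown.

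Intervals were merged and regions called, ranked and assigned to the nearest protein-coding gene within 100000 bp (RefSeq, GRCh38.p14) in Python 3.11.15 with numpy 2.4.6 and pandas 2.3.3. Positions count from 1. Shares carry Wilson intervals, and odds ratios were combined over 10 deciles of AID_ctrl rank by the Mantel-Haenszel method. For these deciles and for the order by lower AID_ctrl rank, rank was the lower AID_ctrl percentile among all peaks of a list. All other ranks were among eligible regions, except where percentile within the whole list is named. With 2 libraries against 2, no p-value was given. Merging, overlap with regions, distances to intervals and the Mantel-Haenszel interval were tested on simulated data. Ranks, gene assignment and the word search were not part of that test. The members and lists were chosen with earlier results of these data known. Genes were named by fixed rules, except REST, BMP5, DAPK3, WNT5B and some genes of overlapped promoters. The rules took genes with most regions (at least 12 genes sought, at most 30) and the 10 regions of highest lower AID_ctrl rank. They also took the 10 highest within 1000 bp of a gene end, list genes with a region, and GATA6. The result of 1 gene list is not reported here. The first rule gave 11 genes, since the next step would have passed 30. Motifs in summit windows of distal regions were not analysed here. Alternatives left out each library, raised the peak threshold, changed the overlap, joining and merging, and added a margin around KO windows.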

Additional observations from a re-analysis of the deposited data

How the results depend on the processing

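The number of regions moved by over 1.5 times without WT replicate 2 (678) and without KO replicate 1 (495), over a range of 276 to 678 when 1 library was left out. It was 125 with a −log10 p of at least 10 and 754 of 11644 eligible regions when a call had to cover at least 50% of a region. The share called by both wash libraries ranged from 86.9 to 98.5% with 1 library left out. In 7 of these settings its odds ratio fell below 1, and every interval in them included 1, without AID_ctrl replicate 1 (92.8%), AID_ctrl replicate 2 (92.4%), AID_aux replicate 2 (90.5%), WT replicate 1 (92.5%), WT replicate 2 (86.9%), KO replicate 1 (91.7%) and AID_wash replicate 1 (98.5%). With 50% coverage it was 94.7% (odds ratio 1.47, 1.04 to 2.09). The share near a gene end stayed between 4.75 and 8.98% with 1 library left out, and turned to 28.1% (odds ratio 2.55, 2.14 to 3.05) with 50% coverage. The share inside a gene ranged from 43.2 to 47.3% with 1 library left out. Its interval reached 1 without KO replicate 2 (47.3%, odds ratio 0.821, 0.661 to 1.02) and with a −log10 p of at least 10 (48%, 0.801, 0.563 to 1.14), and with 50% coverage it turned to 56.4% (1.15, 0.990 to 1.34). The share without a gene within 100000 bp, added after the data were seen, lost its difference only with 50% coverage (9.81%, 1.18, 0.919 to 1.53). The share with both AID_aux ranks below both AID_ctrl ranks, also added then, ranged from 46.2 (without WT replicate 2) to 71.0% (without AID_aux replicate 2) with 1 library left out. A single library in 1 group makes that order easier to meet. It was 45.6% with a −log10 p of at least 10, 22.8% with 50% coverage (19.4% in KO-called regions), 52.3% by fold enrichment, 56.0% by percentile within the whole list and 62.4% with no KO window within 500 bp. The cause of these changes was not tested, apart from the limit that windows of 500 bp set on 50% coverage. A paired comparison, with each AID_aux rank set against the AID_ctrl rank of its own number (a replicate block, added after the data were seen), gave 64.3% in the 266 and 26.2% in KO-called regions. Rank deviations of replicates with the same number correlated at 0.004 between AID_ctrl and AID_aux over 46425 regions. This correlation cannot show whether libraries of the same number were prepared together. The motif shares in summit windows, and their alternatives, were not run. Depth is unknown, so calls near the threshold of the lists are the least certain.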
